A study of Mus musculus with 10 samples.

Results

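The array carried 36 miRNA probes, of 1892 in all, that are numbered between miR-1000 and miR-6895 and whose target sequence is at least 70% G plus C. They were chosen from the names and target sequences in the deposited files, with miR-1193 and miR-1197 left out, and not from their brightness. The same range of numbers held 456 probes. They were read on 10 mouse arrays with a single dye, 5 hybridized with RNA of samples titled T-C cell (source label Col-/-) and 5 with RNA of samples titled Control cell (source label Control Col). The labels call all 10 male and sle liver, and 1 treatment text shared by both groups names TN-CF, 0.5 mg for every 100000 T-C cells in a dish, over 24 hours, and a control. No label explains the terms TN-CF, T-C, Col or sle, and agent and source label cannot be told apart. Whether the 5 samples of each group are separate animals or cultures is also not stated, so the p-values given here cover a spread that may be technical only. Of the liver markers looked at, miR-192-5p, miR-194-5p and miR-148a-3p were detected on 10 of 10 arrays, while miR-122-5p, the dominant hepatocyte miRNA, was detected on 1. The endothelial miR-126a-3p, the fibroblast miR-199a-3p and miR-214-3p and the leukocyte miR-150-5p were also detected on all 10 arrays, while the leukocyte miR-223-3p was detected on 8 and miR-142-3p on 5.

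A miRNA is a short RNA that guides Argonaute proteins to messenger RNAs, mainly through its seed, bases 2 to 8 from the 5′ end. Late-numbered miRNAs were mostly entered in the registry from deep sequencing, and many of them are little conserved and have no well-described role. miR-2861 is known to promote osteoblast differentiation, and miR-1188, miR-3072 and miR-1247 come from the imprinted Dlk1-Dio3 region. G:C pairs are held more strongly than A:U pairs, and runs of G can fold into quadruplexes, so such sequences are known to be demanding targets for hybridization.

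The sequences below are those of 5 of the 6 brightest probes, which carry the results on brightness and spread, followed by miR-1188-3p, which had the smallest p between groups, and by the 3 probes detected on no array. Capitals mark the seed.
miR-5126: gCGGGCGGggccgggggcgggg
miR-6538: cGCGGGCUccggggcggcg
miR-2861: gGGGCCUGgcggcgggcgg
miR-2137: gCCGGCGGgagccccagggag
miR-1895: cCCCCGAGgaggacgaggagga
miR-1188-3p: uCCGAGGCuccccaccacacccugc
miR-1901: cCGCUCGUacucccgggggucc
miR-1199-3p: uGCGGCCGgugcucagucggc
miR-1247-5p: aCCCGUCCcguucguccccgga
The 36 targets were 19 to 25 bases long and 70% to 100% G plus C, and miR-5126 held no A or U at all. No seed was shared between any of the 36. Outside the set, the seed of miR-2861 recurred in miR-3091-3p, that of miR-3102-5p in miR-702-5p and that of miR-3547-5p in miR-6404, miR-6405 and miR-6368. The longest stretch shared by 2 of the targets was 15 bases, between both arms of miR-3113, and the next longest was 10 bases. G outnumbered C in 27 of the 36, and 14 held GGGG, or 38.9%, against 10.8% of all 1892 probes.

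In the RefSeq miRNA table (GRCm38.p6), 32 of the 36 names were found, each with the same sequence as on the array. The 4 not matched included miR-3113-5p, miR-1901 and miR-1893. Set against GENCODE M21, 22 of the 32 overlapped a protein-coding gene on the same strand, 9 in an intron, 3 in a coding exon, 5 in an untranslated part of an exon and 5 in exons of transcripts without coding sequence there. Of the rest, 3 overlapped a protein-coding gene on the opposite strand, 4 lay in non-coding genes alone and 3 overlapped no other gene. miR-5126 (chr1:84695890-84695911, plus strand) lies opposite an untranslated exon part of Dner, a Notch ligand gene. miR-2861 (chr2:32712819-32712837, minus strand) overlaps an untranslated exon part of Cdk9, the kinase of the transcription elongation factor P-TEFb, on the same strand. miR-6538 (chr12:26414970-26414988, minus strand) lies in an intron of Rnf144a, and miR-2137 (chrX:72992113-72992133, plus strand) in one of Zfp185. miR-1895 (chr3:134240515-134240536, minus strand) overlaps an exon of the antisense gene Gm26691, opposite a coding exon of Cxxc4, an inhibitor of Wnt signalling. miR-1188-3p (chr12:109611877-109611901, plus strand) lies in an intron of Rian and miR-3072-5p (chr12:109747893-109747914, plus strand) overlaps an exon of Mirg, both non-coding genes of the Dlk1-Dio3 region.

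Most of the 36 probes were hardly brighter than spots with no probe, and a few were among the brightest of the array. Intensities are the deposited median spot brightness on a linear scale, averaged over the 2 spots of a probe. The mean of the 16 blank spots ran from 54.9 to 227 over the arrays, with T-C cell arrays averaging 148 ± 51.2 and Control cell arrays 141 ± 73.7 (SD, 5 arrays a group, exact two-sided permutation p = 0.865, smallest possible 0.00794). A probe counted as detected on an array where it exceeded the mean of that array's blank spots plus 3 SD. By this limit 13 of the 36, or 36.1%, were detected on at least 5 of 10 arrays, against 25.2% of all probes, and 5, or 13.9%, on all 10, against 9.3% of all probes. Only 3 were detected on no array, or 8.33%, against 30% of all probes. That low share rests on Control cell replicate 5, which had the dimmest and most even blank spots (54.9 ± 3.01 over 16 spots) and a limit of 64.0. There 33 of the 36 were detected, against 5 to 15 on the other 9 arrays, and 16 of the 36 were detected on that array alone. The rise was not particular to the 36: of all probes 69.5% were detected there, against 9.99% to 35.3% on the other 9 arrays.

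The share detected was higher than among other late-numbered probes and close to that of other GC-rich ones, with no test of these shares. Of the 278 late-numbered probes with 50% to under 70% G plus C, 17.3% were detected on at least 5 arrays, and of the 142 with under 50%, 12.0%. Of the 62 GC-rich probes with other numbers, 32.3% were. As a ratio to the blank spots of the same array, the median probe of the 36 stood at 1.23, the median of those 3 classes at 1.08, 0.997 and 1.22, and the median of all probes at 1.10. A typical GC-rich late-numbered probe was thus about as bright as a typical GC-rich probe of any number.

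Within the 36, the brighter probes were richer in G rather than in C. Across the 36 probes, Spearman's rho between the median ratio to blanks and the share of G was 0.59, that for G plus C, whose range the choice of probes narrows, 0.34, and that for target length −0.06. These are descriptions across probes read on the same 10 arrays. Over all 1892 probes the rho was 0.02 for the share of G and 0.18 for G plus C. Over the 456 late-numbered probes it was 0.22 and 0.41, in the same order, so the lead of G held within the 36 only. Of the 27 probes with more G than C, 12 were detected on at least 5 arrays, and of the 9 with as much or more C, 1 was, miR-1188-3p. Of the 11 with at least 80% G plus C, 7 were detected on at least 5 arrays, and of the 25 below that, 6. The 23 probes that missed the filter had median ratios between 0.893 (miR-1247-5p) and 1.35 (miR-5132-5p). The 13 that passed it ran from 1.42 (miR-3102-5p.2-5p) to 45.8 (miR-5126).

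miR-5126 was the brightest of the 36 and the 17th of all 1892 probes by mean intensity. Its intensity was 10925, 3729.7, 3862, 10180.3 and 6295 in T-C cell replicates 1 to 5 and 6984, 7505, 7988, 5955 and 6252 in Control cell replicates 1 to 5. T-C cell replicates 2 and 3 were the 2 dimmest arrays and T-C cell replicates 1 and 4 the 2 brightest, so the T-C cell values lay on both sides of the Control cell values. Against the blank spots it ranged from 17.3 to 133 times their mean.

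miR-2861 ranked 101st with 2072, 492, 524, 1942 and 1604 in the T-C cell arrays and 1536, 1757, 1924, 1561 and 1419.8 in the Control cell arrays, replicates 1 to 5. T-C cell replicates 2 and 3 were below every Control cell array, and the other T-C cell arrays were in or above the Control cell range.

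miR-6538 had the widest range of all 36. Its intensity was 6188, 686, 467, 2199 and 2216 in T-C cell replicates 1 to 5, and 2247, 2443, 2201, 1535 and 2916 in Control cell replicates 1 to 5. T-C cell replicate 1 was the brightest array and T-C cell replicates 2 and 3 the dimmest, a 13.2-fold range within T-C cell against 1.90-fold within Control cell. On T-C cell replicate 3 it missed the detection limit of 474, so it was detected on 9 of 10 arrays.

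miR-2137 and miR-1895 spread differently. miR-2137 read 2201, 671, 1219, 2454 and 1003 in the T-C cell arrays and 1844, 1652, 2109, 804 and 725 in the Control cell arrays, replicates 1 to 5. Its Control cell arrays split as widely as its T-C cell arrays, with replicates 4 and 5 low. miR-1895 read 1291, 683, 557, 985 and 1007 in the T-C cell arrays and 779, 597, 1010.3, 911 and 808 in the Control cell arrays, replicates 1 to 5, and the groups overlapped through most of their range. Among probes detected on all 10 arrays, those nearest the 70% threshold on the inside were miR-1895 with 72.7% G plus C, miR-2137 with 85.7% and miR-2861 with 94.7%. Nearest on the outside were miR-5100 with 61.9% and a mean intensity of 1149, miR-6239 with 55% and 10281, and miR-5099 with 50% and 4739.

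Of the next probes by brightness, miR-5130 read 895, 268, 370.0, 954 and 670.3 in the T-C cell arrays and 534, 855, 718, 667 and 510.3 in the Control cell arrays, replicates 1 to 5. miR-3072-5p, from the Dlk1-Dio3 region, read 485, 211, 409.8, 706 and 567 in the T-C cell arrays and 377, 497, 472, 479 and 371 in the Control cell arrays. For both, T-C cell replicate 2 was the dimmest array and T-C cell replicate 4 the brightest. miR-3077-5p and miR-6366 averaged 354 ± 121 and 363 ± 144 over the T-C cell arrays, and 318 ± 56.9 and 298 ± 88.6 over the Control cell arrays (SD of 5 arrays). miR-3547-5p stood at 273 ± 78.4 against 248 ± 66.9, and miR-3102-5p.2-5p at 219 ± 68.0 against 197 ± 51.6, in the same order and n. These 4 probes overlapped between groups and lay less than 2.5 times above the blank spots on the median array.

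For miR-5126, miR-2861 and miR-6538, the SD over T-C cell arrays exceeded the largest difference between the 2 spots of 1 array, while the SD over Control cell arrays did not. On the log2 scale the spots of miR-5126 differed by 0.12 on the median array and by 0.27 at most, those of miR-2861 by 0.06 and 0.32, and those of miR-6538 by 0.35 and 0.56. The SD over the 5 T-C cell arrays, before normalization, was 0.73 for miR-5126, 0.98 for miR-2861 and 1.44 for miR-6538. Over the 5 Control cell arrays it was 0.18, 0.17 and 0.33. miR-2137 went otherwise: its SDs of 0.75 over T-C cell and 0.69 over Control cell arrays both exceeded its largest spot difference, 0.35. For miR-1895 the spots differed by 0.46 on the median array, as much as its SD over the T-C cell arrays (0.46). Spots disagreed most among dim probes on T-C cell replicate 3: the 2 spots read 356 and 129 for miR-1893, 381 and 158 for miR-3104-5p, 376 and 168 for miR-6366, and 322 and 147 for miR-5621-5p. T-C cell replicate 3 also had the most uneven blank spots (223 ± 83.4 over 16 spots).

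Normalization between arrays reduced the T-C cell spread without removing it. After cyclic loess the SD over T-C cell arrays was 1.17 for miR-6538, 0.71 for miR-2861 and 0.60 for miR-5126, against 0.31, 0.16 and 0.24 over Control cell arrays. The SD was larger in T-C cell for 10 of the 13 tested probes, or 76.9%, and for 76.7% of all 476 tested miRNAs, about the same share. The median SD of the 13 was 0.43 over T-C cell and 0.23 over Control cell arrays, and 0.33 and 0.20 for all tested miRNAs. The normalized level was lowest of the 10 arrays on T-C cell replicate 2 or 3 for 8 of the 13, or 61.5%, and for 100 of all 476 tested miRNAs, where T-C cell replicate 1 was most often lowest. The difference in spread between groups was not tested.

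Control spots moved with part of this pattern. The median intensity of the 5S rRNA spots was 28924, 22177, 13972, 38238 and 20589 on T-C cell replicates 1 to 5 and 26652 to 32017 on the Control cell arrays. The median of the calibration spots was 13359.9, 7881, 2419, 15153 and 7226 on T-C cell replicates 1 to 5 and 8417 to 13243 on the Control cell arrays. Both were lowest on T-C cell replicate 3 and highest on T-C cell replicate 4. T-C cell replicate 2 was not dimmer than T-C cell replicate 5 by either measure, but it was dimmer in its blank spots (136 against 161), for 71.2% of all 476 tested miRNAs and for 13 of the 13 probes. The part of array brightness in the spread of the GC-rich probes was not tested.

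Between T-C cell and Control cell samples, 0 of the 13 tested GC-rich late-numbered probes passed the threshold. Over all 476 tested miRNAs 7.77% passed, 6.3% lower and 1.47% higher in T-C cell. With only 13 probes, a count of 0 does not set them apart from that share. The comparison used limma on log2(intensity + 50) after cyclic loess, with Benjamini-Hochberg adjustment over the 476 and a threshold of 0.05, and the smallest adjusted p among the 13 was 0.0932. The count over all tested miRNAs, 37, became 12 when T-C cell replicate 1 was left out and 2 when T-C cell replicate 4 was. Leaving out Control cell replicate 1 or 5 gave 3, and leaving out Control cell replicate 2 or 3 gave 1. At an unadjusted p of 0.05, 1 of the 13 passed, against 18.3% of all tested miRNAs. The groups overlapped for 13 of 13, and did not overlap for 3.78% of all tested miRNAs, a share too small for 13 probes to show a difference. The log2 difference, T-C cell minus Control cell, was negative for 12 of the 13, with a median of −0.10, against a median of 0.02 over all tested miRNAs. With quantile normalization it was negative for 11 of the 13, and so it was with median centring. Without normalization it was positive for 7 of the 13, with a median of 0.02, so the common sign depends on arrays being scaled to each other. Without T-C cell replicate 2 it was negative for 8 of the 13, with a median of −0.01. The 23 other probes missed the detection filter and were not tested in this fit.

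miR-1188-3p had the smallest p of the 13. Its intensity was 111, 156, 319.8, 167 and 194 in T-C cell replicates 1 to 5 and 503, 844, 313, 256 and 156 in Control cell replicates 1 to 5. In raw intensity, Control cell replicates 1 and 2 were the brightest arrays, and the other Control cell arrays lay among the T-C cell values. As a ratio to the blank spots of the same array, it stood at 1.51 to 5.01 in Control cell and 1.15 to 1.43 in T-C cell arrays. Its normalized levels overlapped between groups through Control cell replicate 5 alone, at 8.08 against a T-C cell maximum of 8.29. miR-1188-3p was detected on 5 of 5 Control cell and 0 of 5 T-C cell arrays, so it entered the test through the Control cell arrays alone. That split depends on the limit of each array. Control cell replicate 5 passed at 156 with a limit of 64.0, while T-C cell replicate 3 missed at 319.8 with a limit of 474. Its normalized log2 level averaged 7.81 ± 0.43 over T-C cell samples and 8.80 ± 0.74 over Control cell samples (SD, 5 a group), and 5 of 5 T-C cell values were below the Control cell mean. The log2 difference was −0.99 (SE 0.32, 95% interval −1.70 to −0.28, limma adjusted p = 0.0932) and missed the threshold. The adjusted p ran from 0.0578 to 0.328 over the alternatives. Its other arm, miR-1188-5p, stood at 1.27 times the blank spots on the median array and was detected on 1 array. With 16.0% G and 14 C bases, miR-1188-3p was the C-rich exception among the 13.

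The bright G-rich probes had wide intervals that reached past 0. For miR-2861 the log2 difference was −0.61 (SE 0.29, 95% interval −1.24 to 0.03, limma adjusted p = 0.307), with 4 of 5 T-C cell values below the Control cell mean. For miR-6538 it was −0.54 (SE 0.46, interval −1.54 to 0.46) and for miR-5126 −0.13 (SE 0.26, interval −0.70 to 0.43). The intervals of miR-2861 and miR-6538 include a 2-fold lower level in T-C cell, and that of miR-5126 does not. For miR-5126 the difference was 0.050 without T-C cell replicate 2, and for miR-6538 it ran from −0.90 without T-C cell replicate 1 to −0.21 without T-C cell replicate 3. For miR-2861 it was −0.38 without T-C cell replicate 2. miR-1895 (−0.01, interval −0.37 to 0.36) and miR-3547-5p (−0.06, interval −0.37 to 0.24) had narrower intervals. That of miR-1895 leaves out a 2-fold difference in either direction. miR-3547-5p stood at 2.09 times the blank spots on the median array, near background, where the fitted scale understates changes. Its interval leaves out a 2-fold difference on that scale. With blanks subtracted its difference was −0.57, with no interval given, so a 2-fold difference in level is not excluded. Another 6, miR-5130, miR-3072-5p, miR-3077-5p, miR-3102-5p.2-5p, miR-6366 and miR-2137, had log2 differences between −0.26 and 0.03 with limma adjusted p from 0.644 to 0.968.

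The other arms of the same hairpins were mostly dim. For 16 of the 36 probes the array held an other arm outside the set, 16 arms in all, and 2 of these, miR-3547-3p and miR-3620-5p, were detected on at least 5 arrays. In 11 of the 18 pairs of arms neither was detected on 5 arrays, so their order is not given. miR-3072-5p stood at 3.64 times the blank spots on the median array and miR-3072-3p at 1.16, and miR-3077-5p at 2.43 with miR-3077-3p at 1.38. In the opposite order, miR-3620-3p stood at 1.08 and miR-3620-5p at 2.79. miR-3547-3p (61.9% G plus C) was lower by 1.09 on the log2 scale in T-C cell samples (SE 0.30, limma adjusted p = 0.0496). Its GC-rich partner miR-3547-5p differed by −0.06 (limma adjusted p = 0.875). Both arms were dim, at 1.60 and 2.09 times the blank spots on the median array, and miR-3547-3p was detected on 6 arrays. The intensity of miR-3547-3p averaged 197 ± 92.0 over T-C cell and 418 ± 187 over Control cell arrays (SD). The T-C cell mean thus lay near that of the T-C cell blank spots, 148. The call on miR-3547-3p was a narrow one: its adjusted p ran from 0.0164 to 0.214 over the alternatives, and with 1 array left out it passed in 2 cases, when Control cell replicate 4 or else T-C cell replicate 3 was dropped. The difference between these arms was not tested.

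The GC-rich probes with other numbers gave a like picture of the group comparison: 0 of 20 tested passed in limma, 1 at an unadjusted p of 0.05, with a median log2 difference of 0.04 and median SDs of 0.47 over T-C cell and 0.21 over Control cell samples. Of the late-numbered probes with 50% to under 70% G plus C, 4 of 48 tested passed, all lower in T-C cell, and of those with under 50%, 1 of 17. Whether these shares differ from that of the 13 was not tested. The trinucleotide ACC, noticed earlier in these data among miRNAs lower in T-C cell, was in 2 of the 13, miR-1188-3p and miR-3072-5p, and in 26.1% of all tested miRNAs. These 2 had log2 differences of −0.99 and −0.10, which are no check on the trinucleotide, since it was noticed in the same comparison.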

How the data were processed

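The 10 mouse samples, 5 titled T-C cell and 5 titled Control cell, were profiled by a microarray service, per the labels' protocols: 1 µg of total RNA was given a poly(A) tail and a ligated tag and stained with Cy3. Per the file headers, the deposited values are median spot intensity on a linear scale, and the authors did not scale them between arrays. No source used here gives the scanner, image software or background treatment, and the number of arrays limits the precision. Each array held 3968 spots: 3784 for 1892 miRNAs at 2 spots each, 16 blank, 148 calibration and 20 5S rRNA spots. Between 189 and 1314 miRNAs were detected per array.

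Intensities were taken to log2(intensity + 50), the 2 spots averaged, and arrays normalized by cyclic loess over all miRNAs (limma 3.58.1 in R 4.3.3, Python 3.11.15). The 476 miRNAs detected on at least 5 of 10 arrays were tested with limma (trend, two-sided) and adjusted by Benjamini-Hochberg. The fold scale with 50 added understates changes near background. The 36 probes, classes and lists were chosen with earlier results of these data known. Named probes were the 10 brightest, the 8 with the smallest p, those passing or not overlapping, those nearest the base-composition threshold, the 4 with the widest range and the 4 with the largest spot difference. Among the named probes, 1 is counted in all totals but not reported here. The trinucleotide, the pairs of arms and the control spots were added after values were seen. Alternatives were other normalizations, offsets, filters, spots, thresholds, the replicate block and leaving out each array.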

Additional observations from a re-analysis of the deposited data

Results flagged for a closer look

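Of 36 sets of 5 arrays checked, 2 had an array far from the others of its group, where chance gives about 1 in 20. The number of GC-rich late-numbered probes detected was 33 on Control cell replicate 5 and 11 to 15 on the other Control cell arrays. The SD of the blank spots was 83.4 on T-C cell replicate 3 and 13.3 to 24.7 on the other T-C cell arrays. None of the 26 sets of normalized levels of the 13 tested probes had such an array.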

How the results depend on the processing

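The count of 0 changed GC-rich probes was the same under every alternative run, with 0 to 3 at an unadjusted p of 0.05 in limma. Over all miRNAs the count of 37 became 14 with arrays centred on their medians, 3 after subtracting blanks (floor of 1), 1 with no filter and 1 to 44 when 1 array was left out. The labels number replicates alike in both groups, but 1 of 5 same-numbered pairs deviated together with a correlation over 0.1 and 1 of 5 correlated best with its own number, so the numbers were not taken as pairs. With the replicate block the count was 22, with 0 of the 13. The median difference was −0.52 with blanks subtracted and −0.21 to −0.01 with 1 array left out. With a threshold of 65% there were 71 probes, 21 of them detected on at least 5 arrays, and with 75% there were 21. Those detected on all arrays numbered 3 with a limit at 6 SD and 5 to 9 with 1 array left out, the 9 without T-C cell replicate 3. Signs changed for probes near 0. miR-1895 was 0.085 with quantile normalization, 0.090 without normalization, 0.034 with 200 added, 0.051 with blanks subtracted and −0.10 to 0.044 with 1 array left out. miR-2137 was 0.060, 0.046, 0.014 and 0.020 in the same order, and −0.23 to 0.15. miR-6366 was −0.11 with quantile normalization, −0.67 with blanks subtracted, −0.11 with the dimmer spot and −0.078 to 0.12. Without normalization miR-3072-5p was 0.025, miR-3077-5p 0.080, miR-3547-5p 0.10 and miR-3102-5p.2-5p 0.11, the last also 0.0062 with median centring. With 1 array left out these ran from −0.21 to 0.045, −0.15 to 0.040, −0.15 to 0.0080 and −0.079 to 0.074, and miR-5126 from −0.26 to 0.050. With blanks subtracted miR-3072-5p was −0.28, miR-3077-5p −0.43, miR-3547-5p −0.57 and miR-3102-5p.2-5p −0.53, farther from 0 than in the main fit. miR-1188-3p was then −3.05. The cause of these shifts was not tested. miR-1188-3p could not be tested with a Control cell array left out, since it then missed the filter, and the range for miR-3102-5p.2-5p covers the 5 of 10 omissions under which it passed.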
